A study of Mus musculus with 8 samples.

Results

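The sarcomeric myosin heavy chain genes Myh3, Myh8, Myh1, Myh2, Myh4 and Myh7 were followed by name through a count table of differentiating mouse muscle cells. These 6 genes were taken from 23420 gene lines, and all 6 passed the filter on low counts that left 13167 genes for testing. The cells were C2C12, a mouse myoblast line whose cells leave the cell cycle and fuse into multinucleated myotubes when serum is lowered. Cells overexpressing AUF1, the product of Hnrnpd, which binds mRNAs, were set beside cells labelled WT. Both lines were grown in 10% fetal bovine serum and then kept for 48 h in 2% horse serum. From each, total RNA and RNA from a fraction titled High, read here as heavy polysomes (mRNAs carrying many ribosomes), was sequenced from 500 ng RNA. The 4 groups, AUF1 total, WT total, AUF1 polysome and WT polysome, held 2 libraries each. The sources used here do not say if WT cells were given a control vector or if the AUF1 line is 1 clone, so AUF1 and a difference between lines cannot be told apart. Separate cultures behind the paired libraries are not stated either, and the spread that p-values rest on may be technical.

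Myosin II is the motor of the muscle thick filament. A pair of heavy chains, each with an ATP-splitting head and a long coiled tail, joins with light chains, and the heavy chain isoform largely sets how fast a fibre shortens. In rodents the embryonic chain Myh3 and the perinatal chain Myh8 come first in development and regeneration. Adult fast fibres then use Myh2 (type IIa), Myh1 (type IIx) and Myh4 (type IIb), and slow fibres use Myh7, which is also a ventricular chain of the heart.

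In the GENCODE M21 annotation of mm10, 5 of the genes lie in 1 cluster on the plus strand of chromosome 11, spanning 230335 bases, in the order Myh3 (chr11:67078300-67102291), Myh2 (chr11:67171027-67197517), Myh1 (chr11:67200052-67224575), Myh4 (chr11:67238029-67260446) and Myh8 (chr11:67277124-67308634). Myh2 ends 2534 bases before Myh1 begins, whereas 68735 bases part Myh3 from Myh2. Myh7 lies apart on the minus strand of chromosome 14 (chr14:54970684-54994626), next to the cardiac gene Myh6. The coding parts of the 6 genes are nearly equal in length, from 5805 bases in Myh7 to 5826 bases in Myh1 and Myh2.

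The 4 genes Myh1, Myh2, Myh4 and Myh8 share stretches of sequence just upstream of their starts. RefSeq's promoter table (GRCm38.p6) matched all 6 genes. Of the runs of bases common to the 250 bases before the start in these 4 genes, the longest has 14 letters, TTCTAATTATATCC, and a second has 9, TCAAATTAT. In the following plus-strand stretches of 114 bases both runs are in capitals, and they are shown because they are what these 4 upstream regions have in common. Each stretch ends upstream of the gene's start in both annotations.
Myh1, chr11:67199882-67199995: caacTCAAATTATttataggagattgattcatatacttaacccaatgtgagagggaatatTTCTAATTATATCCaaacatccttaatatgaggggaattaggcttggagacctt
Myh2, chr11:67170842-67170955: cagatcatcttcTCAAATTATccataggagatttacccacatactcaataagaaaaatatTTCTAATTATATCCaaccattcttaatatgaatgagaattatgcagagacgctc
Myh4, chr11:67237594-67237707: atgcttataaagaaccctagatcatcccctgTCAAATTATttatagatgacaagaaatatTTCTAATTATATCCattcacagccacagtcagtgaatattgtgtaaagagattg
Myh8, chr11:67277010-67277123: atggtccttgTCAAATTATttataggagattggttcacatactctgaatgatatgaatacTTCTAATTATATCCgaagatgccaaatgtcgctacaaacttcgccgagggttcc
The gap between the runs is 47 bases in Myh1, 39 in Myh2, 20 in Myh4 and 41 in Myh8. Searched on both strands of all 32536 promoter windows, the 14-letter run was found in 4 (0.0123%), which are these 4 genes, and the 9-letter run in 57 (0.175%). Since both runs were picked for being shared by the 4 genes, these shares are a description and carry no test.

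Neither run is in the windows of Myh3 or Myh7. The 114 bases before the start of Myh3, the member with the most reads, are given for contrast, with its TATAAA in capitals.
Myh3, chr11:67078186-67078299: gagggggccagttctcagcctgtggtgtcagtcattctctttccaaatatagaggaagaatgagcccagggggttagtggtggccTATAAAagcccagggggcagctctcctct
TATAAA on the given strand was found in the windows of Myh1, Myh3 and Myh4 and in 7.55% of all windows. The MEF2 motif, searched by name on both strands, was in Myh1, Myh4 and Myh8, in each overlapping the 9-letter run, and in 1.68% of windows. The E-box CANNTG, bound by MyoD and myogenin, was in Myh3, Myh4, Myh7 and Myh8 and in 66.2% of windows. The M-CAT element CATTCC, bound by TEAD factors, was in Myh1, Myh4 and Myh7 and in 12.6% of windows, and the CArG box, by name, in Myh4 and in 1.48%. A match is a match of letters and not a measured binding site.

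Library totals ran from 25281224 to 34917660 counts assigned to genes. On the first principal component of log2 CPM (44.6% of the variance) the libraries numbered 1 in the titles stood apart from those numbered 2, and the second (37.1%) parted AUF1 from WT. For this reason differences within replicate 1 and within replicate 2 accompany the fitted ones. The submitters' column names give the second set a replicate number that differs from the titles, and the title numbers are used here. Why they differ is not stated. Hnrnpd, the overexpressed gene, measured 448 and 397 CPM (counts over a library total adjusted by TMM, the trimmed mean of M-values) in AUF1 total libraries, against 64.2 and 99.6 in WT total libraries. On polysomes it measured 549 and 427 CPM in AUF1 libraries, against 106 and 131 in WT libraries. The labels AUF1 and WT thus hold in all 8 libraries, but Hnrnpd cannot check the labels total and High. The log2 fold change of Hnrnpd came to 2.37 ± 0.32 (SE) in total RNA (adjusted p = 0.0413, edgeR) and 2.04 ± 0.32 on polysomes (adjusted p = 0.0608). The WT polysome library of replicate 1 stood apart. It had 129 genes with 10 counts or more that had at most 2 counts in each of the 7 other libraries, where the other libraries had 0 to 4 such genes, and 15713 genes above 0 against 14466 to 15199. Among them are the atrial light chain Myl7 with 255 counts there and 0 to 2 elsewhere, the cardiac hormone Nppa with 23 against 0 to 2, and the fibroblast gene Lum with 113 against 0 to 2. Myh11 had 65 counts there and 0 to 7 elsewhere. Fitted differences of the members that rest on this library are also given without it, and the part of these transcripts in them was not tested.

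In total RNA every one of the 6 heavy chain mRNAs was higher in both AUF1 libraries than in both WT libraries. This was so for 22.5% of all genes tested. The embryonic Myh3, adult fast Myh1 and perinatal Myh8 rose by edgeR's quasi-likelihood test (adjusted p under 0.05 over all genes), which called 3 of 6 members against 1.02% of all genes. The median log2 fold change of the 6 was 3.38, beside 0.00 over all genes. In bulk samples like these, fewer expressing cells and less RNA per cell cannot be told apart.

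Among the developmental chains, Myh3 measured 998 and 1731 CPM in AUF1 total libraries (replicates 1 and 2), against 80.9 and 164 CPM in WT total libraries. It is the embryonic chain of newly formed fibres and held most of the reads of the 6. The lowest AUF1 value stood several times above the highest WT value, and replicate 2 was the higher one in both lines. Its log2 fold change was 3.48 ± 0.45 (11.2-fold, adjusted p = 0.041), with 3.62 within replicate 1 and 3.40 within replicate 2. Myh8, the perinatal chain, was scarce at 6.41 and 9.70 CPM in AUF1 total libraries, against 0.729 and 0.913 CPM (18 and 26 counts) in WT total libraries. Its groups did not overlap either, and its log2 fold change was 3.29 ± 0.43 (9.75-fold, adjusted p = 0.041), with 3.02 and 3.32 within the 2 numbers.

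Among the adult fast chains, Myh1 (type IIx) measured 284 and 454 CPM in AUF1 total libraries, against 12.6 and 25.7 CPM in WT total libraries. This was the largest difference of the 6, with a log2 fold change of 4.27 ± 0.47 (19.3-fold, adjusted p = 0.0399) and 4.49 and 4.14 within the numbers. Myh2 (type IIa) measured 8.58 and 9.70 CPM in AUF1 total libraries, against 0.122 and 1.16 CPM in WT total libraries. The WT values rest on 3 and 33 counts and lie far apart, so its log2 fold change of 3.81 ± 0.94 missed the threshold (adjusted p = 0.143), with 5.51 within replicate 1 and 2.99 within replicate 2. Myh4 (type IIb), the fastest of the mouse limb muscle chains, measured 12 and 26 CPM in AUF1 total libraries, against 1.5 and 4.85 CPM in WT total libraries. Its log2 fold change of 2.58 ± 0.65 missed the threshold too (adjusted p = 0.151, 2.94 and 2.41 within the numbers).

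The slow chain Myh7 measured 20.9 and 48.9 CPM in AUF1 total libraries, against 1.62 and 6.64 CPM in WT total libraries. The spread between replicates was wide in both lines, replicate 2 being the higher in each. The log2 fold change was 3.08 ± 0.79 (adjusted p = 0.153), with 3.64 and 2.87 within the numbers.

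**Figure D1:**
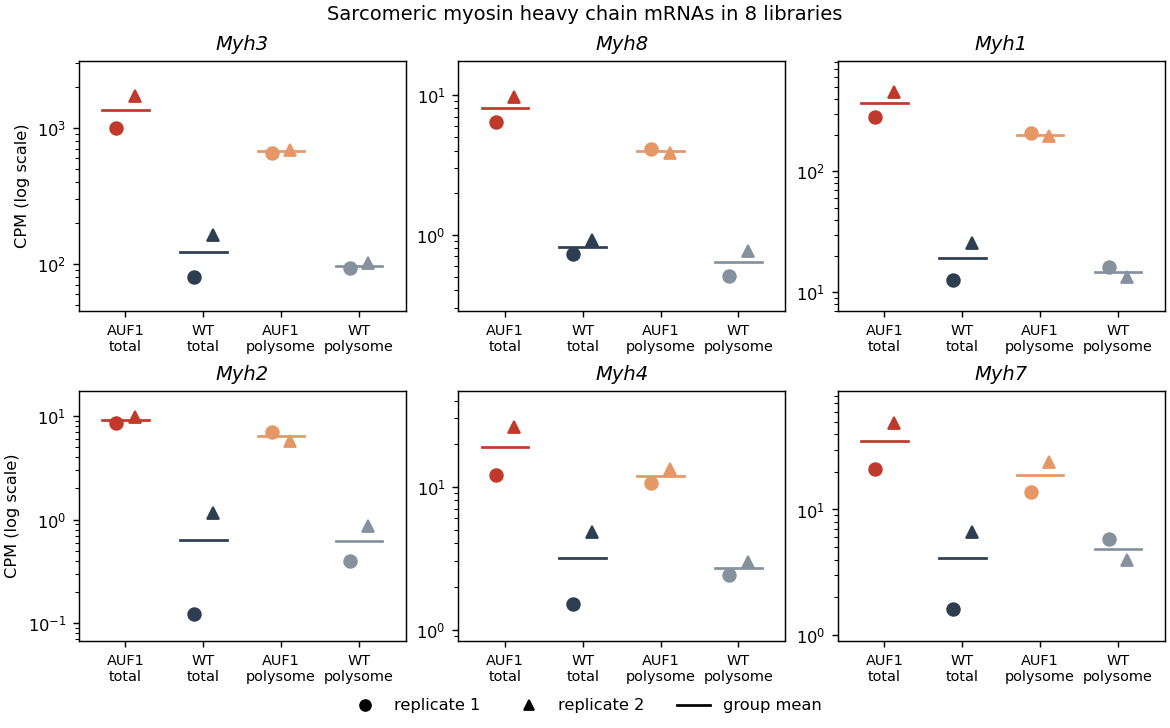
CPM (log axis, a separate range in each panel) of the 6 heavy chain mRNAs in each library, with replicate 1 as circles, replicate 2 as triangles and the group mean as a line. In every panel both AUF1 libraries sit above both WT libraries of the same RNA fraction, from Myh3 (998 and 1731 CPM in AUF1 total, 80.9 and 164 CPM in WT total) down to Myh8.

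The calls in total RNA come from edgeR with 4 groups, TMM scaling and no replicate block. A fit with the block, given with the alternatives below, called more members and also more genes. Without the block the calls end in a fit of the total libraries alone and with RLE size factors (adjusted p = 0.0501 for the 3 members). Each of these called 0 of 6 members and 0 of 13167 genes. The calls also end when any 1 of the 8 libraries is left out, which leaves 1 library in a group. The filter was then run anew, and kept 13542 genes without the AUF1 total library of replicate 1, for example. DESeq2 on the same genes called 6 of 6 members against 6.72% of all genes (885), and no alternative turned the direction of any member.

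On heavy polysomes the 6 mRNAs again lay higher in both AUF1 libraries than in both WT libraries, as 23.6% of all genes did. Myh1 was the 1 member of 6 that rose by the edgeR test, which called 0.349% of all genes. The median log2 fold change was 2.72 for the 6 and 0.00 over all genes.

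Myh1 measured 206 and 197 CPM in AUF1 polysome libraries, against 16.2 and 13.3 CPM in WT polysome libraries, with replicates close in both lines. The log2 fold change of Myh1 was 3.77 ± 0.45 (13.6-fold, adjusted p = 0.0461), and 3.66 and 3.88 within the numbers. Myh3 measured 657 and 695 CPM in AUF1 polysome libraries, against 93.1 and 102 CPM in WT polysome libraries. Its log2 fold change of 2.79 ± 0.44 (2.82 and 2.77 within the numbers) missed the threshold at an adjusted p of 0.0625, although the groups lay far apart. Myh8 gave the same adjusted p of 0.0625 with 4.13 and 3.87 CPM in AUF1 polysome libraries, against 0.511 and 0.762 CPM in WT polysome libraries (log2 fold change 2.65 ± 0.42, with 2.86 and 2.25 within the numbers).

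Myh2 measured 6.99 and 5.71 CPM in AUF1 polysome libraries, against 0.398 and 0.857 CPM in WT polysome libraries (log2 fold change 3.34 ± 0.92, adjusted p = 0.18, 3.92 and 2.64 within the numbers). Myh4 measured 10.6 and 13.2 CPM in AUF1 polysome libraries, against 2.41 and 2.98 CPM in WT polysome libraries (2.14 ± 0.64, adjusted p = 0.216, 2.11 and 2.12 within the numbers). Myh7 measured 13.9 and 23.8 CPM in AUF1 polysome libraries, against 5.80 and 3.97 CPM in WT polysome libraries (1.95 ± 0.75, adjusted p = 0.319), and was the member whose 2 numbers disagreed most, at 1.25 and 2.57. None of these 3 passed the threshold, and in each the AUF1 and WT ranges stood apart. Without a replicate block the call of Myh1 ended with RLE size factors (adjusted p = 0.0588), in a fit of the polysome libraries alone and when any 1 library was left out, while DESeq2 called 5 of 6, all but Myh7, against 6.5% of all genes. Without the WT polysome library of replicate 1, which leaves 1 WT library assumed to vary like the others, the log2 fold change was 3.91 ± 0.66 for Myh1 (adjusted p = 0.388), 2.73 ± 0.63 for Myh3, 2.38 ± 0.57 for Myh8, 2.88 ± 1.22 for Myh2, 1.99 ± 0.91 for Myh4 and 2.24 ± 1.07 for Myh7. All 6 differences stayed positive, and none was called. Myh7 is also a heart chain, and its replicate 1 value rests on the library that held Myl7, Nppa and 102 counts of Myh6, against 26 counts of Myh6 in the WT polysome library of replicate 2. What part such transcripts had in the Myh7 value was not tested.

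**Figure D2:**
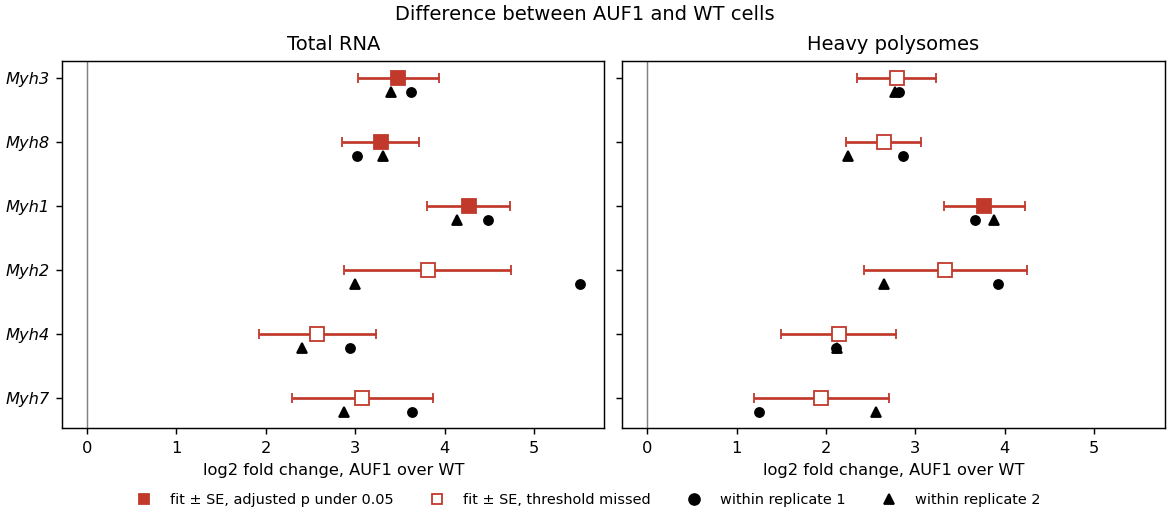
Log2 fold change of AUF1 over WT for the 6 heavy chains in total RNA (left) and on heavy polysomes (right), with the edgeR value and SE as squares, filled where the adjusted p is under 0.05, and the changes within replicate 1 (circles) and replicate 2 (triangles). All values lie above 0, from 1.25 for Myh7 within replicate 1 on polysomes to 5.51 for Myh2 within replicate 1 in total RNA.

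The polysome fraction was then set against total RNA to ask whether the heavy chain mRNAs were represented differently there. No member and no gene passed the edgeR threshold in AUF1 cells (0% of genes called, 438 genes and the 2 members Myh3 and Myh8 at an unadjusted p under 0.05) or in WT cells (0%, 364 genes and 0 members). DESeq2 called 0.22% of genes (29) in AUF1 and 0.228% (30) in WT cells, none of them a member. In AUF1 cells all 6 mRNAs had a lower CPM on polysomes than in total RNA within both numbers. The share of all genes for which this was so was not counted. The median fitted log2 difference in AUF1 cells was -0.88 for the 6 and -0.02 over all genes. The log2 ratio of polysome to total CPM for the 6 summed was -0.56 within replicate 1 and -1.28 within replicate 2. For 4 of 6, namely Myh1, Myh2, Myh3 and Myh8, both AUF1 polysome libraries lay below both AUF1 total libraries, as for 13.4% of genes.

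In WT cells the 2 numbers did not go the same way. The summed log2 ratio was 0.28 within replicate 1 and -0.71 within replicate 2. In replicate 1, 5 of 6 members, all but Myh8, were positive, and in replicate 2 all 6 were negative. The share of all genes with these signs was not counted. The median fitted log2 difference in WT cells was -0.28 for the 6 and 0.02 over all genes. The WT total library of replicate 1 held the lowest CPM of Myh1, Myh2, Myh3, Myh4 and Myh7 among the 8 libraries. Both WT polysome libraries lay below both WT total libraries for 0 of 6 members and for 14.9% of genes. Without the WT polysome library of replicate 1 the fitted WT log2 difference of polysome against total RNA was negative for 5 of 6 members, from -0.52 (Myh1) to -0.06 (Myh7), and 0.40 for Myh2, and none was called.

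**Figure D3:**
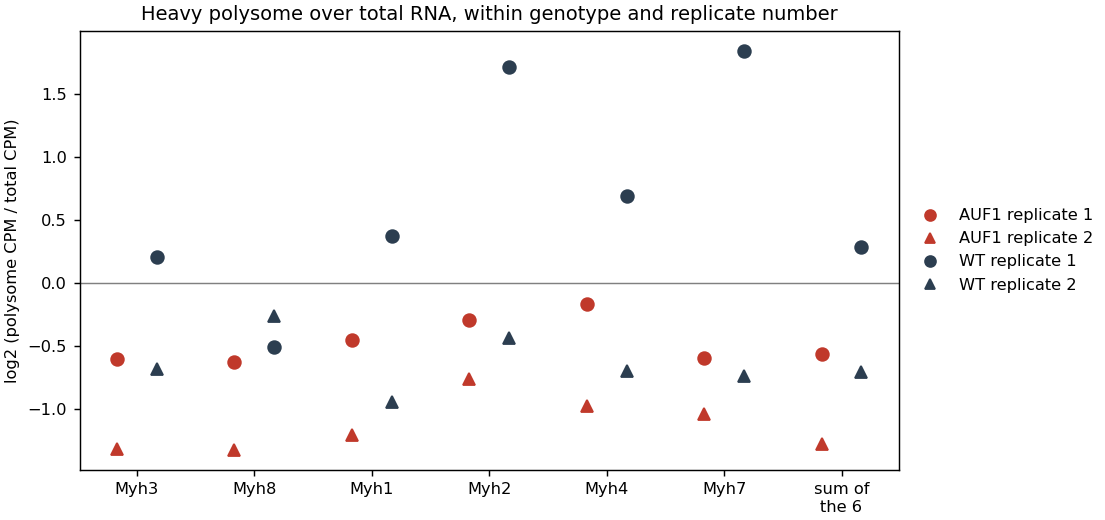
Log2 ratio of polysome CPM to total CPM for each heavy chain and for the 6 summed, with AUF1 (red) left of WT (dark), replicate 1 as circles and replicate 2 as triangles. All AUF1 points lie below 0, whereas WT points of replicate 1 lie above 0 except for Myh8, and the summed values are -0.56 and -1.28 in AUF1 cells and 0.28 and -0.71 in WT cells.

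The difference between AUF1 and WT was smaller on polysomes than in total RNA for all 6 members within both replicate numbers, which was so for 31.1% of genes. The interaction, the AUF1 effect on polysomes minus that in total RNA, ran from -1.13 ± 1.03 (Myh7) to -0.44 ± 0.88 (Myh4) on the log2 scale. Its median was -0.57 for the 6 and -0.02 over all genes. No member passed (edgeR adjusted p = 1 for each), and 0% of genes were called (16 at an unadjusted p under 0.05, 0 by DESeq2). Without the WT polysome library of replicate 1 it ran from -0.93 (Myh2) to -0.35 (Myh1), with -0.83 ± 1.22 for Myh7. When 1 library was left out, the interaction turned positive for Myh2 without the WT total library of replicate 1 (0.38) or the WT polysome library of replicate 2 (0.17). It turned positive for Myh4 without the WT total library of replicate 1 (0.18) or the AUF1 total library of replicate 2 (0.23), and stayed negative for the other 4 members in these refits.

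Counts per kilobase of exon were used to set levels of different genes side by side. In AUF1 total libraries the order was Myh3 with 165 and 286 CPM per kilobase, Myh1 with 44.6 and 71.4, Myh7 with 2.43 and 5.68, Myh4 with 1.99 and 4.33, Myh2 with 1.20 and 1.36 and Myh8 with 0.545 and 0.824. Myh7 and Myh4 overlapped, and the others kept apart. In WT total libraries Myh3 (13.4 and 27.0) and Myh1 (1.98 and 4.05) again stood first and second, and were followed by Myh4 (0.249 and 0.806), Myh7 (0.188 and 0.770), Myh2 (0.0170 and 0.162) and Myh8 (0.0619 and 0.0776). There Myh4 overlapped with Myh7, and Myh2 with Myh8. The annotated exons of Myh8 (11772 bases) and Myh7 (8616 bases) add up to more than 1 transcript of each gene (6149 and 6230 bases). Per coding kilobase Myh8 measured 1.10 and 1.67 CPM in AUF1 total libraries, which overlaps with Myh2 at 1.47 and 1.66.

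The make-up of the heavy chain pool differed between the lines in the same direction in both RNA fractions. Embryonic Myh3 made up 76.9 ± 0.66% of the 6 (per kilobase, SD, n = 2) in AUF1 total RNA and 83.2 ± 1.5% in WT total RNA, and IIx Myh1 20.02 ± 0.97% in AUF1 and 12.4 ± 0.12% in WT. On polysomes Myh3 made up 75.03 ± 0.79% in AUF1 and 82.2 ± 2.4% in WT, and Myh1 21.3 ± 1.3% in AUF1 and 11.9 ± 2.1% in WT. Reads of Myh1 per 100 of Myh3 were 28.4 and 26.2 in AUF1 total libraries, against 15.5 and 15.7 in WT total libraries. The pair of developmental chains, Myh3 and Myh8, differed in their share by -6.40 percentage points (AUF1 minus WT) in total RNA, with -7.98 and -4.83 within the numbers. On polysomes the difference was -7.20 points, with -6.01 and -8.38 within the numbers. The groups did not overlap in either fraction, and the two-sided exact permutation test gave p = 0.333 in both, the smallest that 2 against 2 libraries allow. The fast Myh4 made up 1.05 ± 0.17% of the pool in AUF1 and 2.01 ± 0.62% in WT total RNA, so the adult fast chains did not all take a larger share.

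**Figure D4:**
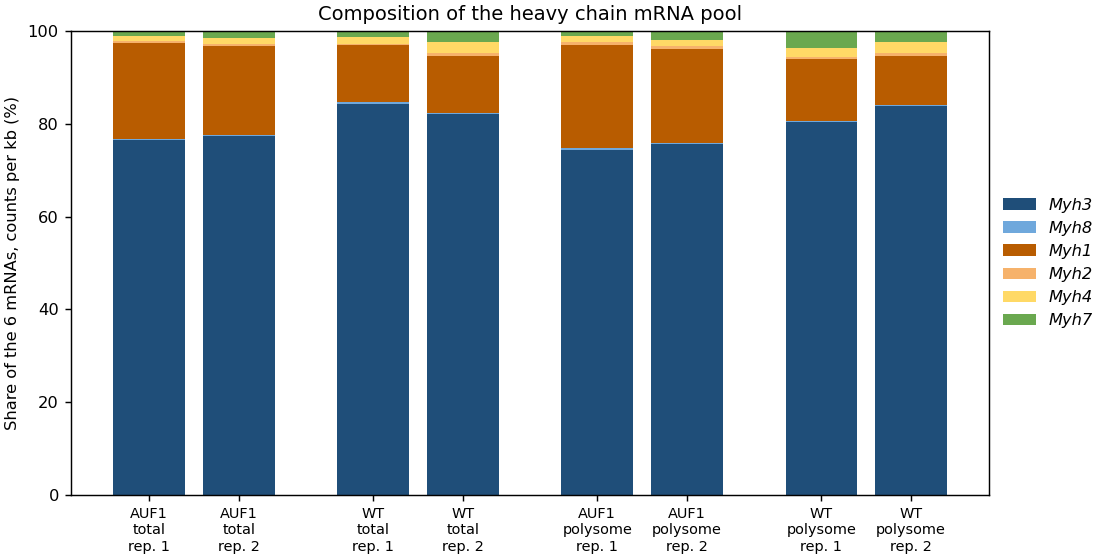
Share of each heavy chain in the 6 (counts per kilobase of exon, percent) in every library, as stacked bars from 0 to 100. Myh3 is the largest part in each bar, and Myh1 takes 20.02% on average in AUF1 total against 12.4% in WT total libraries.

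Of the 6 genes, Myh1, Myh2, Myh4 and Myh8 are near copies of each other, which bears on how far their counts can be kept apart. Coding sequences were 91.1% identical between Myh1 and Myh2, 90.3% between Myh1 and Myh4 and 88.1% between Myh4 and Myh8. Identity was lower between Myh1 and Myh3 (80.7%) and between Myh1 and Myh7 (77.6%). Myh7 and the cardiac Myh6, which is not among the 6, were 91.8% identical. Of all 50-base windows of the transcript, 26.7% in Myh1, 26.9% in Myh2, 21.4% in Myh8, 19.2% in Myh4 and 22.2% in Myh7 occur exactly in another gene's transcripts, against 4.84% in Myh3. At 100 bases the shares were 9.73% in Myh1, 9.17% in Myh2 and 1.15% in Myh3. The sources used here do not say how reads with several matches were treated, and the table's line for them is 0 in all libraries. Values of Myh2, Myh4 and Myh8 beside the far more abundant Myh1, and of Myh6 beside Myh7, are uncertain to that extent.

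Reads of Myh2 per 100 of Myh1 were 3.03 and 2.14 in AUF1 total libraries, against 0.968 and 4.51 in WT total libraries. Those of Myh4 were 4.22 and 5.73 per 100 of Myh1 in AUF1, against 11.9 and 18.9 in WT total libraries, so this ratio was not constant. Those of Myh8 were 2.26 and 2.14 per 100 of Myh1 in AUF1 total libraries, against 5.81 and 3.55 in WT total libraries. On polysomes the ratio of Myh8 to Myh1 was 2.00 and 1.97 in AUF1 libraries, against 3.15 and 5.71 in WT libraries. It thus varied little among AUF1 libraries and was higher in WT libraries. Those of Myh6 per 100 of Myh7 stayed between 15 and 20.8 in 7 libraries and were 50 in the WT polysome library of replicate 1. What part of these reads came from the more abundant neighbour was not tested.

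Several annotated gene models overlap the members. These are the antisense RNAs Myhas at Myh1, 9430073C21Rik at Myh2, and Mhrt, Gm29015 and Gm31251 at Myh7, together with Gm17428 and the microRNA genes Mir6923 at Myh3 and Mir208b at Myh7. Only Mir208b has a line in the table, with 0 counts in all libraries. Since no source used here gives the strand setting of the counting, sense and antisense reads of Myh1, Myh2 and Myh7 cannot be told apart. The noncoding RNA 2310065F04Rik, annotated between Myh3 and Myh2, had 74 and 138 counts in AUF1 total libraries, against 1 and 8 in WT total libraries. Its log2 fold change was 4.51 ± 0.93 in total RNA and 3.82 ± 0.87 on polysomes, neither past the threshold (edgeR adjusted p = 0.0984 and 0.123).

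The other sarcomeric heavy chains are Myh6, Myh7b, Myh13 and Myh15, and 0 of the 3 tested were called in either fraction. Myh7b, a slow-type chain whose gene also carries a microRNA, differed by 2.55 ± 0.62 (log2, adjusted p = 0.139) and Myh6 by 3.16 ± 1.03 (adjusted p = 0.242) in total RNA. Myh13, which follows Myh8 in the cluster and encodes the extraocular chain, measured 0.0680 and 0.102 CPM per kilobase in AUF1 total libraries, against 0.0590 and 0.131 in WT total libraries. Its log2 fold change was -0.17 ± 0.60, while its 5 neighbours lay between 2.58 and 4.27. The value of Myh13 rests on 12 and 17 counts in AUF1 total libraries, against 9 and 23 in WT total libraries. At counts this near the floor a small change of Myh13 cannot be told from none. Myh15 had 0 counts in all libraries.

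Non-muscle and smooth muscle heavy chains, which move the cytoskeleton, gave 0 calls among 3 tested in either fraction. Myh9, the main non-muscle chain here, measured 155 and 117 CPM per kilobase in AUF1 total libraries, against 105 and 105 in WT total libraries (log2 fold change 0.38 ± 0.32, adjusted p = 0.712). Myh14 was at 0.356 and 0.504 CPM per kilobase in AUF1 against 0.0390 and 0.0483 in WT total libraries, with a log2 fold change of 3.28 ± 0.77 that missed the threshold (adjusted p = 0.129). The share of the 6 sarcomeric chains in heavy chain mRNA (the 6 with Myh9, Myh10 and Myh14) depends on the length used, since the annotated exons of Myh9 span 12928 bases and its coding part 5880. Per kilobase of exon they made up 57.2% and 74.97% in AUF1 total libraries, against 12.7% and 22.8% in WT total libraries. Per coding kilobase they made up 39.4% and 59.4% in AUF1 total libraries, against 6.57% and 12.6% in WT total libraries. On polysomes they made up 51.9% and 64.7% per kilobase of exon in AUF1 libraries, against 14.1% and 19.4% in WT libraries. Per coding kilobase the polysome shares were 34.5% and 47.2% in AUF1 libraries, against 7.44% and 10.5% in WT libraries, and on both scales the AUF1 libraries lay above the WT libraries.

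Among genes whose products work with the heavy chains, every call was a rise. Over all genes the edgeR test called 1.02% in total RNA and 0.349% on polysomes. Of the sarcomeric light chains, which bind the neck of the myosin head, 1 of 5 tested rose in total RNA, the embryonic and atrial chain Myl4 (2.26 ± 0.33, adjusted p = 0.0441), and 0 of 5 on polysomes, where Myl4 had 1.95 ± 0.33 (adjusted p = 0.069) and Myl1 2.90 ± 0.49 (adjusted p = 0.0696). The list's median log2 fold change was 2.26 in total RNA and 2.12 on polysomes. The light chains of other cell types (Myl6, Myl9, Myl12a and Myl12b) gave 0 calls of 4 in either fraction, with a median of 0.25 in total RNA. In that list Myl9, the smooth muscle regulatory chain, had the smallest p (1.74 ± 0.35, adjusted p = 0.0935).

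Of 9 tested partners that anchor the thick filament or bind it, 5 rose in total RNA and 0 fell, with a median log2 fold change of 2.92. They include Myom3 (3.6 ± 0.36, adjusted p = 0.0399), Myom2 (2.64 ± 0.31) and Myom1 (2.92 ± 0.36), which tie thick filaments at the M-band, and Mybph (2.65 ± 0.31), a myosin-binding protein. On polysomes 2 of 9 rose, Myom3 (2.90 ± 0.35) and Mybph (2.53 ± 0.31, both adjusted p = 0.0461), and the median was 2.53.

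Of 9 genes for folding and turnover of myosin, 4 rose in total RNA and 0 fell, with a median of 1.82. Unc45b, the muscle chaperone that folds the myosin head, measured 180 and 159 CPM in AUF1 total libraries, against 15 and 20.8 in WT total libraries (3.24 ± 0.31, adjusted p = 0.0399). The ubiquitin ligases of the sarcomere Trim55 (2.38 ± 0.30), Trim54 (2.90 ± 0.37) and Trim63 (1.82 ± 0.26) also rose. On polysomes 2 of 9 rose, Unc45b (2.99 ± 0.31) and Trim55 (2.44 ± 0.30), with a median of 1.60.

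Of 20 tested regulators of heavy chain genes, 1 rose in total RNA and 0 fell, and 0 were called on polysomes. Tead4, a factor that binds the M-CAT element, measured 197 and 171 CPM in AUF1 total libraries, against 47.9 and 47.5 in WT total libraries (1.95 ± 0.29, adjusted p = 0.0461). On polysomes the smallest p values were those of Myog (1.70 ± 0.29, adjusted p = 0.0734) and Tead4 (1.64 ± 0.29, adjusted p = 0.0746). In total RNA Myog had 1.76 ± 0.29 (adjusted p = 0.0577). The list's median was 0.20 in total RNA and 0.22 on polysomes. Its genes ran from -0.84 to 1.95 in total RNA, with 11 of 20 above 0, and were not split by kind. The median therefore does not show how any single regulator moved, and the part of regulators in the heavy chain values was not tested.

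**Figure D5:**
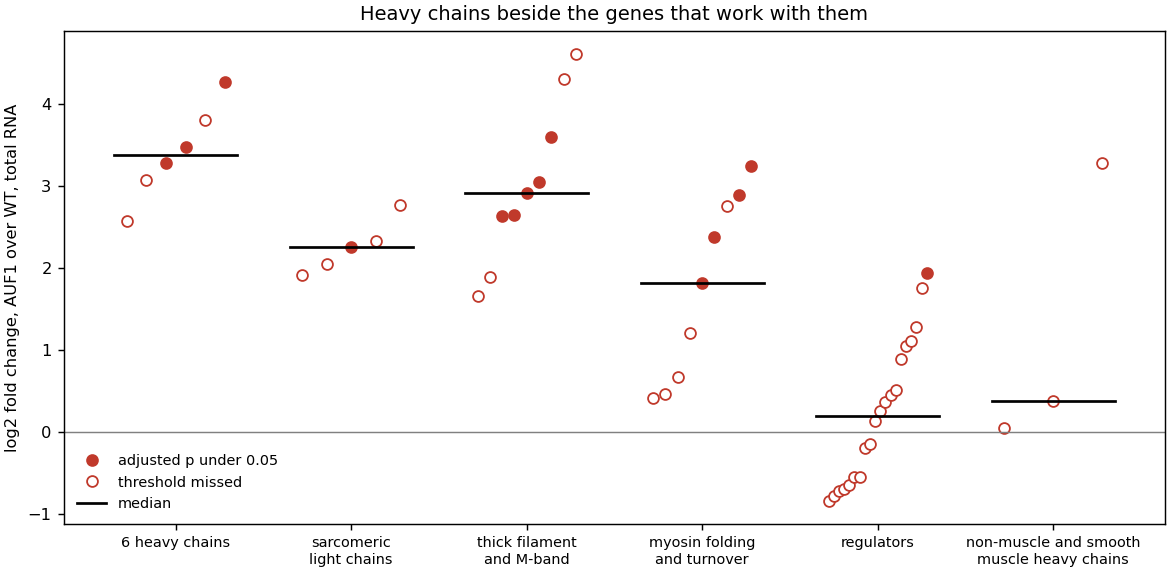
Log2 fold change of AUF1 over WT in total RNA for each tested gene of 6 lists, filled where the edgeR adjusted p is under 0.05, with the list's median as a line. The medians are 3.38 for the 6 heavy chains, 2.26 for light chains, 2.92 for thick filament and M-band genes, 1.82 for folding and turnover, 0.20 for regulators and 0.38 for the non-muscle and smooth muscle heavy chains.

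Markers of cell types were read beside these values. Summed over 6 myotube markers, CPM ranged from 16535 to 20499 in AUF1 total libraries and from 2751 to 3266 in WT total libraries. This sum is mostly Acta1 (12324 and 9984 CPM in AUF1 against 1426 and 2053 CPM in WT total libraries). Of the 6 myotube markers 2 rose, Ckm (4.46 ± 0.59, adjusted p = 0.041) and Acta1 (2.68 ± 0.39, adjusted p = 0.0439). The 4 myoblast markers summed to 2818 to 4628 CPM in AUF1 and to 1458 to 1485 CPM in WT total libraries, a sum that is mostly Des (4248 and 2506 CPM in AUF1 against 1233 and 1153 CPM in WT total libraries), with 0 of 4 called and a median log2 fold change of 0.79 in total RNA and 0.59 on polysomes. Des had the smallest p (1.5 ± 0.30, adjusted p = 0.0921), followed by Pax7 (1.22 ± 0.41, adjusted p = 0.257), while Myf5 had -0.78 ± 0.50 in total RNA, with -0.64 and -0.85 within the numbers. Of the 4 tested smooth muscle markers 1 rose, Cnn1 (2.57 ± 0.37, adjusted p = 0.0439), while Myh11, the defining smooth muscle heavy chain, stayed at 0.284 CPM or less in 7 libraries and measured 1.85 CPM in the WT polysome library of replicate 1.

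The 6 cardiac markers summed to between 39.6 and 68.3 CPM in the 8 libraries, with Nppa and Myl7 at or near 0 in all but the WT polysome library of replicate 1, where Nppa measured 0.653 and Myl7 7.24 CPM. In total RNA 0 of 4 tested were called and 2 of 4 lay above 0, with a median of 0.06, Nkx2-5 (0.73 ± 0.38) and Gata4 (0.47 ± 0.34) having the smallest p and Nppb (-0.57 ± 1.65) and Tnni3 (-0.34 ± 0.63) lying below 0. The 5 fibroblast markers summed to 13.7 to 24.2 CPM in AUF1 and to 67.8 to 399 CPM in WT total libraries, the WT libraries differing widely, with 0 of 4 called. Lum was at 0 in all total libraries and measured 3.21 CPM in the WT polysome library of replicate 1. Pdgfra (-1.99 ± 0.56) and Mfap5 (-3.94 ± 1.15) had the smallest p. The adipocyte and immune lists summed to at most 1.76 CPM. The part of the myotube and fibroblast differences in the heavy chain values was not tested.

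Across the 8 libraries the members' log2 CPM moved together, with Pearson r from 0.90 (Myh7 and Myh8) to 0.99 (Myh1 and Myh3). These libraries differ by line and by replicate number, which bears on all genes alike, so r is a description. Outside the 6, the genes most like Myh1 among 9659 genes whose mean log2 CPM reached 3 were Myom1, Myom3 and Pde4dip (r = 0.998, 0.997 and 0.997), and Myom1 and Myom3 led those most like Myh3. Prepl and Myom1 led those most like Myh8, Nrap, Abl2 and Baiap2l1 were most like Myh4, and Plekhh1, Baiap2l1 and ORF63 most like Myh2. The slow chain Myh7 had its highest values with Hexim2, Gab2 and Sh3pxd2a (r = 0.965, 0.960 and 0.957), none of them a gene of the sarcomere.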

How the data were processed

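The authors deposited raw counts per gene symbol for 8 libraries, with 5 summary lines that were left out of totals and tests. Reads outside genes were 6.04% to 7.23% and ambiguous reads 0.254% to 0.389% of each column. The submitters' processing notes name cutadapt, Trimmomatic, Bowtie, STAR, SAMtools and mm10. The sources used here give no versions, counting tool, strand setting or annotation. Of the gene names, 27 read as dates.

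Genes were kept by filterByExpr and fitted in edgeR 4.0.16 (R 4.3.3) with TMM, 4 groups and no block, on 4 residual degrees of freedom. Tests were two-sided, with Benjamini-Hochberg adjustment over 13167 genes. The SE was taken as the absolute log2 fold change divided by the square root of F, and CPM are counts over TMM-scaled library totals. Changes within a number are differences of log2 CPM (prior count 2). DESeq2 1.42.0, RLE scaling, no filter, a replicate block, the compared groups alone and leave-one-out were alternatives. Levels were divided by GENCODE M21 exon length, and shares also by coding length, chosen after seeing the data. The script was tested on simulated data. Members and lists were chosen with earlier results of these data known. Named are the 6 members, Hnrnpd, per list the called genes (at most 4, smallest p first) or else up to 2 with the smallest p, the 3 most similar genes per member, and overlapping models, except that 1 gene is not reported here. Myh13, Myh15, Myh11, Lum, Nppa, Myl7, Nppb, Tnni3 and Myf5 were named after their values were seen.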

Additional observations from a re-analysis of the deposited data

How the results depend on the processing

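In total RNA the counts of members and genes called (3 and 134) became 0 and 0 with RLE size factors and with only the compared groups, 6 and 885 with DESeq2, and 6 and 1730 with the replicate block. On polysomes (1 and 46) they became 0 and 0 with RLE and with only the compared groups, 2 and 94 without the filter, 5 and 856 with DESeq2, and 6 and 1716 with the block. For polysome against total RNA DESeq2 called 29 genes in AUF1 and 30 in WT cells, the block 2 in each, and the fit without the filter 1 in AUF1 cells. Leaving out 1 library at a time, without and with the block, gave 0 to 6 members in both AUF1 comparisons, 0 to 2975 genes in total RNA, 0 to 3011 on polysomes, 0 to 11 for the interaction, 0 to 1133 for polysome against total RNA in AUF1 and 0 to 70 in WT cells. Without the block each of these refits called 0. Where 1 library of a group was left, the lone library is assumed to vary like the others.

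The direction of AUF1 against WT held for all 6 members in both fractions under every alternative run. Differences of polysome against total RNA, none of them called, changed sign in some. With 1 library left out, the WT log2 difference ran from -0.79 to 0.23 for Myh1, -0.86 to 2.33 for Myh2 (0.0097 with the block and all libraries), -0.73 to 0.27 for Myh3, -0.83 to 0.85 for Myh4 and -0.45 to 1.59 for Myh7. In AUF1 cells that of Myh2 ran from -1.26 to 0.20, and the interaction from -2.85 to 0.38 for Myh2 and -1.52 to 0.23 for Myh4. The causes were not tested. With coding length, an alternative chosen after seeing the data, the mean share of the 6 in heavy chain mRNA was 49.4% in AUF1 and 9.60% in WT total RNA, and 40.9% in AUF1 and 8.96% in WT polysome RNA, against 66.1% and 17.8%, and 58.3% and 16.7%, per exon length. The developmental share kept its sign throughout (-8.93 to -5.28 points with 1 library left out).

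Differences between replicates 1 and 2 correlated between groups over genes (r = 0.62 to 0.81), but there are only 2 numbers, with no label that ties same-numbered libraries to a day or culture, and the block stays an alternative. With it, calls that rose in total RNA and on polysomes came to 4 and 5 of 5 sarcomeric light chains, 9 and 9 of 9 thick filament partners, 6 and 6 of 9 folding and turnover genes, 4 and 3 of 20 regulators (0 and 2 fell), 2 and 1 of 3 other sarcomeric chains, 1 and 0 of 3 non-muscle chains and 6 and 6 of 6 myotube markers, and 3 and 3 of 4 fibroblast markers fell. Over all genes the block called 13.1% in total RNA, where 920 rose and 810 fell, and about as many on polysomes. Hnrnpd on polysomes (adjusted p = 0.00184) and 2310065F04Rik (0.00124 and 0.00235) were called with the block too. Low counts limit Myh2 and Myh8 in WT cells, and 2 libraries a group limit every test.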
